A study of Mus musculus with 9 samples.

Results

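Parietal cells are the acid-secreting cells of the gastric glands. The 10 genes described here encode the proton pump of these cells, the ion channels and exchangers that work beside it, the enzyme that supplies its protons, a transcription factor and a receptor. They were chosen by name: each probe whose gene name on the array, or whose current RefSeq symbol, is one of the 10 was read. These were 12 of the 55681 probes on the array, with 2 probes each for Kcnq1 and Esrrg. Of these, 11 probes and 9 genes passed the filter on dim probes and were among the 21734 genes tested. Hrh2 did not pass it.

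RNA was measured in whole stomachs of newborn mice, 5 of the genotype C/EBPbeta KO (KO 1 to KO 5) and 4 of the wild type (WT 1 to WT 4), killed at birth. Cebpb encodes C/EBPβ, a transcription factor of the basic leucine zipper class. Each profile is 1 mouse on 1 Agilent array with a single colour (Cy3). Neither the strain nor the removed part of the gene is given in the labels, the loss is not restricted to a cell type in them, and one label field calls the mice old where the protocol and the design place them at birth. The level of Cebpb was 3.30 ± 0.30 (SD, n = 4) in wild type, against −2.18 ± 0.60 (SD, n = 5) without the gene, so it fell by 5.48 ± 0.30 (SE) on the log2 scale (limma adjusted p = 0.000123), and its signal on each array went with the genotype label. Whether its probe lies in the removed part is not given. Here and below a level is log2 of the spot signal relative to the array's 75th percentile, which ran from 221 on WT 4 to 472 on KO 3 in signal units, and a difference is the knockout mean minus the wild-type mean of these levels.

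Array WT 4 differed from WT 1 to WT 3 in markers of other epithelia and of smooth muscle, and some results are also given without it. Of the squamous epithelium markers, named after their values were seen, Krt4 was at 1.96 on WT 4 and at 5.28 to 5.72 on WT 1 to WT 3. Krt13 was at 4.05 against 6.87 to 7.08, and Ivl at −3.06 against 0.29 to 0.70. Trp63, on the same list, went the other way, at 4.16 against 2.46 to 3.11. The mean of 7 pit cell markers was 0.85 above the wild-type mean on WT 4 and 0.21 to 0.40 below it on the other 3. Between the genotypes, 2 of 8 squamous markers were higher and 6 lower (median −0.27), none past the threshold. The part of these differences in the results was not tested.

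In a parietal cell, the H,K-ATPase exchanges cytosolic protons for luminal potassium across the canalicular membrane. Potassium channels return the potassium to the lumen, chloride leaves beside the protons, and the bicarbonate that carbonic anhydrase makes with each proton leaves through the basolateral membrane in exchange for chloride. Histamine, gastrin and acetylcholine stimulate the cell, and somatostatin restrains it. Acid secretion matures around and after birth in rodents.

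The sequences shown here belong to genes picked for their results, and a role of the upstream letters in those results was not tested. One sequence is the array probe of Atp4a, the pump's catalytic subunit, because WT 4 was the lowest array at this gene. The Atp4a difference was 0.44 with all arrays and 0.19 without WT 4. The other 2 are the 250 bases before the start of Slc26a9 and before the start numbered 2 of Esrrg, the 2 genes with the largest positive differences; start 2 is shown because it holds the C/EBP letters. The Atp4a probe lies at chr7:31509268-31509327 (mm9, plus strand) and begins at position 2796 of the transcript. The Slc26a9 stretch lies at chr1:131743772-131744021 and the Esrrg stretch at chr1:187651508-187651757 (both GRCm38.p6, plus strand, RefSeq). Capitals mark motif matches.

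Atp4a probe: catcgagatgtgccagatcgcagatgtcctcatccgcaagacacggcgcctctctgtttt
Slc26a9 upstream: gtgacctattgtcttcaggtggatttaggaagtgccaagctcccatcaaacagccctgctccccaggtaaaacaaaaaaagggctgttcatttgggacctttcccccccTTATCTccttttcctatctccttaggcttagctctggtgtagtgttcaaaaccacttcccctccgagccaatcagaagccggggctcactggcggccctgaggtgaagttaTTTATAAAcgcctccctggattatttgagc
Esrrg upstream 2: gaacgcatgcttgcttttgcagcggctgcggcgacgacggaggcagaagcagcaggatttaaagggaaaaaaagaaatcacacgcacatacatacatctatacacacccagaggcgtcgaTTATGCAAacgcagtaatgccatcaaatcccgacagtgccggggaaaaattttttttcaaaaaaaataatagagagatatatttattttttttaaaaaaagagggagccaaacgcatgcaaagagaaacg

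Letter patterns were searched on both strands: the estrogen-related receptor element AAGGTCA, the C/EBP element TTGCNNAA, the TATA box TATAAA and the GATA element AGATAA. RefSeq promoters were matched for 6 of the 10 genes (12 promoters: Atp4a, Slc26a9, Kcne2, Slc4a2, Esrrg and Hrh2). Slc26a9 held the TATA letters 28 bases before its start on the plus strand, overlapping the same motif on the minus strand, and the GATA letters 141 bases before it on the minus strand. Esrrg held the C/EBP letters 130 bases before its start 2 on the minus strand and the TATA letters 19 bases before its start 1 on the minus strand. None of the 12 held AAGGTCA. Over 32851 RefSeq promoters cut to the same length, TATAAA was found in 12.4%, AGATAA in 9.99%, TTGCNNAA in 9.56% and AAGGTCA in 4.08%. These matches describe letters and not binding.

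None of the 9 genes tested differed between the genotypes after adjustment over all genes (limma, Benjamini-Hochberg, threshold 0.05), where 45 of all genes did (0.207%). The lowest adjusted p among the 9 was 0.308, that of Slc26a9. At an unadjusted p below 0.05 there were 4 of the 9 (Slc26a9, Kcnq1, Esrrg and Slc26a7), beside 8.73% of all genes. Signals were higher in knockout for 7 of the 9, beside 50.9% of all genes, with a median difference of 0.44 beside 0.0049 over all genes. The groups did not overlap for 1 of the 9, beside 3.39% of all genes. RNA of a whole stomach cannot tell a larger share of a cell type from more RNA per cell.

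**Figure D1:**
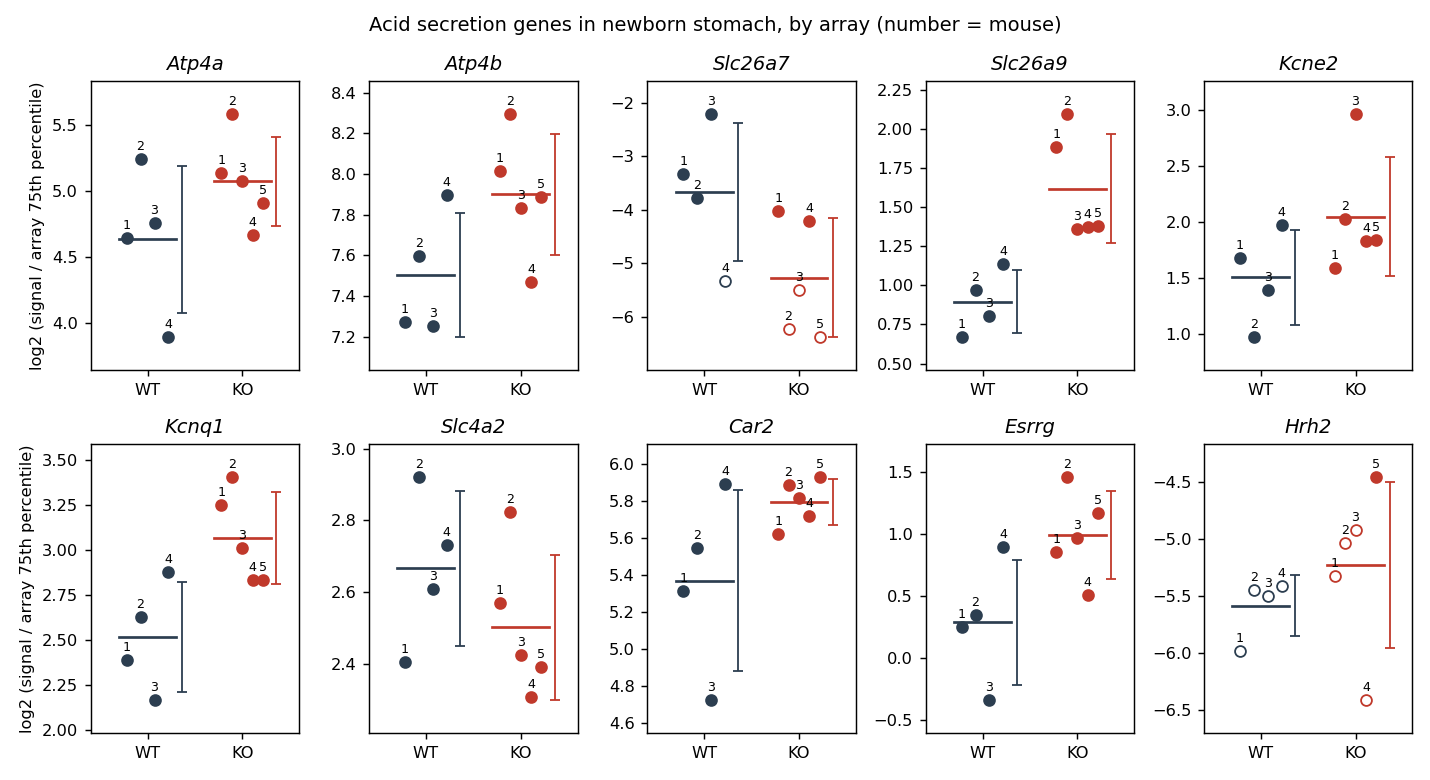
Log2 level (vertical axis, signal over the array's 75th percentile) of the 10 acid secretion genes on each array, wild type in dark blue and knockout in red, 1 panel a gene. The number beside a point is the mouse, open points were not well above background, the horizontal line is the group mean and the bar beside it the SD. The groups are separate for Slc26a9 and overlap in the other panels.

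The pump has a catalytic α subunit, encoded by Atp4a, and a glycosylated β subunit, encoded by Atp4b, and both were well above background on all 9 arrays. For Atp4a, levels were 5.13, 5.58, 5.07, 4.67 and 4.91 in knockout (KO 1 to KO 5) and 4.65, 5.24, 4.76 and 3.90 in wild type (WT 1 to WT 4). WT 2 lay above all knockout arrays except KO 2, and WT 4 lay below every other array. The difference was 0.44 ± 0.27 (SE; 1.35-fold, 95% interval 0.886 to 2.07; limma adjusted p = 0.739). It was 0.19 without WT 4 and 0.64 without WT 2. Arrays share slides: slide 4 holds KO 2, WT 1 and WT 2, slide 1 holds KO 4, KO 5, WT 3 and WT 4, and slides 2 and 3 hold 1 knockout array each. Within slides the Atp4a difference was 0.64 on slide 4 and 0.46 on slide 1.

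Atp4b was at 8.02, 8.29, 7.83, 7.47 and 7.89 on the knockout arrays and at 7.27, 7.60, 7.25 and 7.90 on the wild-type arrays. Here WT 4 was the highest wild-type array and above KO 3, KO 4 and KO 5. The difference was 0.40 ± 0.20 (SE; 1.32-fold, 95% interval 0.959 to 1.80; limma adjusted p = 0.642). It was 0.86 on slide 4 and 0.10 on slide 1.

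The 2 subunits moved apart on 1 array. The level of Atp4a minus that of Atp4b was −4.00 on WT 4 and between −2.98 and −2.36 on the other 8 arrays. Only its change between arrays can be read, since the 2 values come from different probes. It averaged −2.83 ± 0.11 (SD, n = 5) over the knockout arrays and −2.87 ± 0.76 (SD, n = 4) over the wild-type arrays, or −2.49 ± 0.14 (SD, n = 3) without WT 4. The other 3 wild-type values lay above the 5 knockout values, which is given without a test because WT 4 was set apart for its value.

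**Figure D2:**
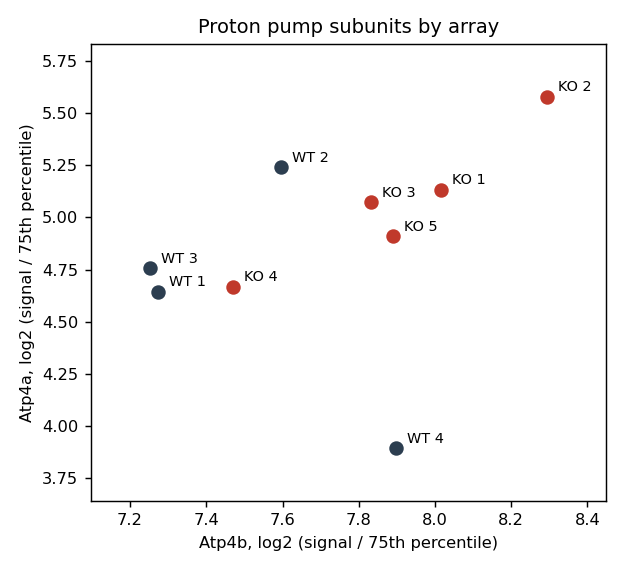
Log2 level of Atp4b (horizontal axis) and of Atp4a (vertical axis), both over the array's 75th percentile, with 1 point an array, wild type in dark blue and knockout in red. WT 4 lies below the other 8 arrays for Atp4a, at 3.90, and among the knockout arrays for Atp4b, at 7.90.

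Slc26a9 encodes a chloride channel and transporter of the SLC26 family found in gastric epithelium. It was the 1 gene of the 9 whose groups did not overlap. Processed signals were 1085, 1218, 1212, 1185 and 1190 in knockout (KO 1 to KO 5) and 655, 670, 519 and 486 in wild type (WT 1 to WT 4). Relative to the 75th percentile, its levels were 1.89, 2.09, 1.36, 1.38 and 1.38 in knockout and 0.67, 0.97, 0.80 and 1.13 in wild type. KO 1 and KO 2 stood above the other 3 knockout arrays, and WT 4, the highest wild-type array, lay below these 3. The difference was 0.72 ± 0.20 (SE; 1.65-fold, 95% interval 1.21 to 2.25; limma adjusted p = 0.308). Within slides it was 1.27 on slide 4 and 0.41 on slide 1. A larger difference was found for 2.58% of all genes.

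Slc26a7 encodes another member of the family, a basolateral chloride and bicarbonate exchanger of parietal cells. Its probe was dim, well above background on 2 of 5 knockout and 3 of 4 wild-type arrays. Levels were −4.02, −6.23, −5.50, −4.20 and −6.37 in knockout (KO 1 to KO 5) and −3.33, −3.77, −2.22 and −5.33 in wild type (WT 1 to WT 4). Knockout arrays KO 1 and KO 4 lay above WT 4 and below the other wild-type arrays, so the groups overlapped. The difference was −1.60 ± 0.68 (SE; limma adjusted p = 0.539). It was −2.68 within slide 4 and −1.51 within slide 1, −0.62 with another background correction (normexp) and −2.16 without WT 4.

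The potassium channel of the secretory membrane is formed by the pore subunit KCNQ1 and the accessory subunit KCNE2. Kcnq1 was at 3.25, 3.41, 3.01, 2.84 and 2.84 in knockout (KO 1 to KO 5) and at 2.39, 2.63, 2.17 and 2.88 in wild type (WT 1 to WT 4). All knockout arrays lay above WT 1, WT 2 and WT 3, while WT 4 lay just above KO 4 and KO 5. The difference was 0.55 ± 0.19 (SE; 1.46-fold, 95% interval 1.09 to 1.97; limma adjusted p = 0.448). Its other probe gave 0.51 ± 0.20 (SE; limma adjusted p = 0.558), but the 2 probes share 51 bases and are no independent measurements.

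Kcne2 was at 1.59, 2.03, 2.96, 1.83 and 1.84 in knockout and at 1.68, 0.97, 1.39 and 1.98 in wild type. KO 3 stood well above all other arrays, and of the other knockout arrays KO 2 lay just above the wild-type range and the rest within it. The difference was 0.55 ± 0.30 (SE; 1.46-fold, 95% interval 0.919 to 2.32; limma adjusted p = 0.671). It was 0.32 without KO 3 and 0.70 without WT 4. Within slides, Kcnq1 differed by 0.90 and Kcne2 by 0.71 on slide 4, and by 0.31 and 0.15 on slide 1.

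Car2 encodes the cytosolic carbonic anhydrase II, which supplies protons and bicarbonate and is also made in other cell types, red blood cells among them. Its levels were 5.62, 5.89, 5.81, 5.72 and 5.93 on the knockout arrays and 5.31, 5.54, 4.73 and 5.89 on the wild-type arrays. The knockout arrays were close together (SD 0.13, n = 5), whereas WT 3 was low and WT 4 lay within the knockout range (SD 0.49, n = 4). The difference was 0.43 ± 0.22 (SE; 1.34-fold, 95% interval 0.956 to 1.89; limma adjusted p = 0.642). It was 0.21 without WT 3 and 0.60 without WT 4. It was 0.46 within slide 4 and 0.52 within slide 1. Of 5 red blood cell genes tested, 3 were higher and 2 lower in knockout, none past the threshold. Their summed level ran from 59.4 to 117 in knockout and from 66.3 to 87.1 in wild type, and their part in the Car2 result was not tested.

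Slc4a2 encodes AE2, the anion exchanger that brings chloride into the parietal cell in return for bicarbonate. It lay at 2.57, 2.82, 2.42, 2.31 and 2.39 in knockout and at 2.40, 2.92, 2.61 and 2.73 in wild type. The groups covered nearly the same range, and WT 2 was the highest array. The difference was −0.16 ± 0.16 (SE; 0.892-fold, 95% interval 0.693 to 1.15; limma adjusted p = 0.859). A test that misses the threshold does not show equal levels; the interval leaves room for changes of either sign. It was −0.080 without WT 2 and −0.25 without WT 1. Its slides had opposite signs, 0.16 on slide 4 and −0.32 on slide 1.

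Esrrg encodes the estrogen-related receptor γ, a nuclear receptor known in mice to act in the parietal cell gene programme, and also made in muscle and other tissues. Levels were 0.85, 1.46, 0.97, 0.51 and 1.17 in knockout (KO 1 to KO 5) and 0.25, 0.34, −0.34 and 0.90 in wild type (WT 1 to WT 4). WT 4 lay above KO 1 and KO 4, and the other 3 wild-type arrays lay below all knockout arrays. The difference was 0.71 ± 0.27 (SE; 1.63-fold, 95% interval 1.08 to 2.46; limma adjusted p = 0.489). Its other probe shares no bases with the first and gave 0.67 ± 0.25 (SE; limma adjusted p = 0.529). Within slides the difference was 1.17 on slide 4 and 0.56 on slide 1. It was 0.50 without WT 3 and 0.91 without WT 4.

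Hrh2 encodes the histamine H2 receptor, through which histamine stimulates acid secretion. Its probe was well above background on KO 5 alone, and on no wild-type array. Its level ran from −6.41 to −4.46 in knockout and from −5.98 to −5.41 in wild type, so the wild-type arrays lay within the knockout range. The gene was not tested.

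**Figure D3:**
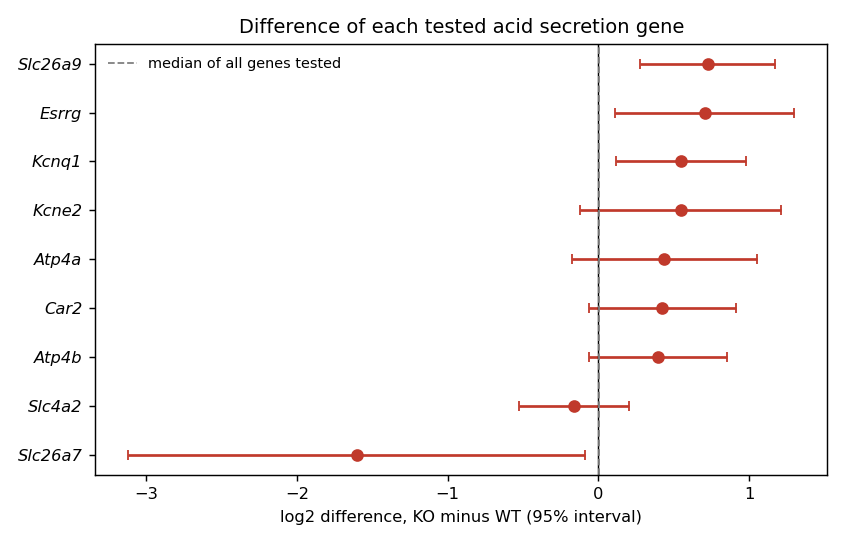
Log2 difference, knockout minus wild type (horizontal axis), of the 9 tested acid secretion genes, with 95% intervals from limma. The solid line marks 0 and the dashed line, almost on it, the median of all genes at 0.0049. The intervals of Slc26a9, Esrrg and Kcnq1 lie above 0 and that of Slc26a7 below it before any adjustment, and none of the 9 genes passed the test over all genes.

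Among the 8 members other than the dim Slc26a7, the same arrays tended to be high or low within a genotype. KO 2 was the highest knockout array for 6 of the 8 and KO 4 the lowest for 5. WT 4 was the highest wild-type array for 6 of the 8, the exceptions being Atp4a and Slc4a2, and WT 3 was the lowest for 4. Relative to the wild-type mean, the median over the 9 tested genes was 0.50, 0.79, 0.45, 0.22 and 0.33 in knockout (KO 1 to KO 5) and −0.05, 0.09, −0.11 and 0.36 in wild type (WT 1 to WT 4). WT 4 thus lay above KO 4 and KO 5 by this median, and the other wild-type arrays lay below all knockout arrays.

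General epithelial markers had mostly positive differences too. Of 10 tested, 9 were higher in knockout, none past the threshold, with a median difference of 0.38, and their summed level ran from 517 to 726 in knockout and from 391 to 671 in wild type. All 6 smooth muscle markers had negative differences (median −0.56), with a summed level of 896 to 1438 in knockout and 1259 to 2022 in wild type, and none passed the threshold. With each array scaled to the mean of the epithelial markers, the median difference was 0.13 over the 9 acid secretion genes and −0.31 over all genes, so that scaling shifted both alike. By gland cell type, 7 of 7 pit cell markers were higher (median 1.15) and 1 of them, Gkn2, rose. All 6 endocrine cell markers tested were higher (median 1.03), Hdc, Sst and Gast among them, and so were 3 of 4 mucous neck cell markers (median 0.83), none past the threshold; summed levels of the endocrine markers ran from 104 to 199 in knockout and from 52.6 to 94.2 in wild type, with Neurod1 not well above background on any array. Among chief cell markers, 4 of 5 were higher (median 0.18), with none past the threshold and Lipf not well above background on any array. Parietal markers were higher for 6 of 7 tested, and 5 of these 7 are acid secretion genes already counted above. Their part in the results was not tested. Y-linked signal was low on KO 2, KO 4 and KO 5 and on no wild-type array. Its mean log2 level was −5.16, −6.47 and −7.06 on these arrays. It was −0.36 on KO 1, −0.15 on KO 3 and −0.39 to 0.035 in wild type. Low Y-linked signal was thus found in knockout only, and its part cannot be fully told apart from that of the genotype. With that Y-linked level added as a covariate, the median of the 9 genes was 0.51, and the limma adjusted p was 0.9999 for each of them.

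Genes that regulate acid secretion from other cells or at the parietal cell surface were read from a list of 9, of which 8 were tested. None of the 8 passed the threshold, 6 were higher and 2 lower, and the median difference was 0.60. The groups did not overlap for 4 of them, beside 3.39% of all genes. Hdc, Sst and Gast on this list are also among the 6 endocrine cell markers counted above, so the counts are not separate results. Hdc, which encodes the histamine-forming enzyme of enterochromaffin-like cells, was at −0.07, −0.65, 0.081, −0.44 and 0.060 in knockout (KO 1 to KO 5) and at −0.87, −1.16, −1.03 and −1.20 in wild type (WT 1 to WT 4). Every knockout array lay above every wild-type array. The difference was 0.86 ± 0.19 (SE; limma adjusted p = 0.191), 0.36 within slide 4 and 0.93 within slide 1.

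Ptger3, which encodes the EP3 receptor that inhibits acid secretion on binding prostaglandin E2, differed by 0.69 ± 0.18 (SE; limma adjusted p = 0.285), and by 0.40 with the mean over its probes or with normexp. Sst, the somatostatin gene, differed by 1.20 ± 0.39 (SE; limma adjusted p = 0.412), and WT 4, at 0.46, was far below the other wild-type arrays at 2.25 to 2.54. Without WT 4 the Sst difference was 0.72. Chrm3, the muscarinic M3 receptor through which acetylcholine acts, was lower on all knockout arrays, with a difference of −0.49 ± 0.14 (SE; limma adjusted p = 0.347). Sstr2, a somatostatin receptor, was too dim on each array to stand well above background.

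Gast, the gastrin gene, was singled out after its values were seen. It was at 0.75, −3.74, 1.84, 2.48 and −0.07 in knockout (KO 1 to KO 5) and at −2.93, −2.33, −2.85 and −2.40 in wild type (WT 1 to WT 4). KO 2 lay below all wild-type arrays and the other 4 knockout arrays above all of them. Gast was well above background on 4 of 5 knockout arrays and on all 4 wild-type arrays, and KO 2 had the lowest level. The difference was 2.88 ± 1.05 (SE; limma adjusted p = 0.470), and 3.88 ± 0.50 without KO 2 (limma adjusted p = 0.0372). KO 2 is the knockout array farthest from the others for Gast, so leaving it out narrows the spread. That p therefore cannot serve as a separate test. With slide as a block the Gast difference was 1.86. Within slides it was −1.11 on slide 4, which holds KO 2, and 3.84 on slide 1. KO 2, the array with the lowest Gast, was the highest knockout array for both pump subunits.

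A second list held 15 apical and basolateral transport genes, all tested. Of these, 13 were higher and 2 lower, with a median difference of 0.39 and none past the threshold. The groups did not overlap for 3 of the 15, beside 3.39% of all genes. Genes named here and from the lists that follow are the 4 of smallest p in each list. Slc12a2, the sodium, potassium and chloride cotransporter NKCC1, was at 3.61, 3.70, 3.79, 3.42 and 4.15 in knockout and at 3.10, 3.15, 2.93 and 3.17 in wild type. Its groups did not overlap, and the difference was 0.65 ± 0.17 (SE; limma adjusted p = 0.278), 0.57 within slide 4 and 0.74 within slide 1. Slc9a2, a sodium and proton exchanger, differed by 0.79 ± 0.23 (SE; limma adjusted p = 0.353) and Clcn2, a chloride channel, by 0.86 ± 0.30 (SE; limma adjusted p = 0.448; 0.47 with the Y-linked covariate), both without overlap of the groups. Car9, a membrane carbonic anhydrase, differed by 1.34 ± 0.42 (SE; limma adjusted p = 0.388), with KO 5 inside the wild-type range.

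The third list covered traffic of the secretory membrane, where tubulovesicles that carry the pump fuse with the canaliculus. Of its 12 genes 10 were higher and 2 lower (median 0.27), with none past the threshold. The groups did not overlap for 1 of the 12, beside 3.39% of all genes. Rab27b, a small GTPase of secretory vesicles, differed by 0.61 ± 0.18 (SE; limma adjusted p = 0.363) and its groups did not overlap. Stx3, a syntaxin of apical membrane fusion, differed by 0.55 ± 0.23 (SE; limma adjusted p = 0.529). Lasp1, an actin-binding protein, lay at 0.31 ± 0.19 and Vamp8, a vesicle SNARE protein, at 0.27 ± 0.19, and both turned to just below 0 with scaling to the epithelial markers (−0.0042 and −0.040, beside −0.31 over all genes). Without WT 4, Vamp8 lay at 0.12.

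The fourth list held genes of parietal cell energy supply and identity. Of 11 tested, 7 were higher and 4 lower, with a median of 0.059 and none past the threshold. Esrrb, a relative of Esrrg, differed by 0.68 ± 0.28 (SE; limma adjusted p = 0.530), by 0.27 with normexp and by 0.39 with the Y-linked covariate. Ldhb, a lactate dehydrogenase subunit, lay at 0.28 ± 0.17, Shh, the sonic hedgehog signal that parietal cells secrete, at 0.24 ± 0.30, and the coactivator gene Ppargc1b at 0.21 ± 0.25. These 3 were below 0 with scaling to the epithelial markers (−0.030, −0.069 and −0.10). Without WT 4, Shh lay at 0.46 and Ppargc1b at 0.45. On slides 4 and 1, in that order, Ppargc1b differed by 0.65 and −0.26 and Shh by −0.047 and 0.68. The other genes named from the 4 lists, Gast aside, had the same sign on both slides.

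**Figure D4:**
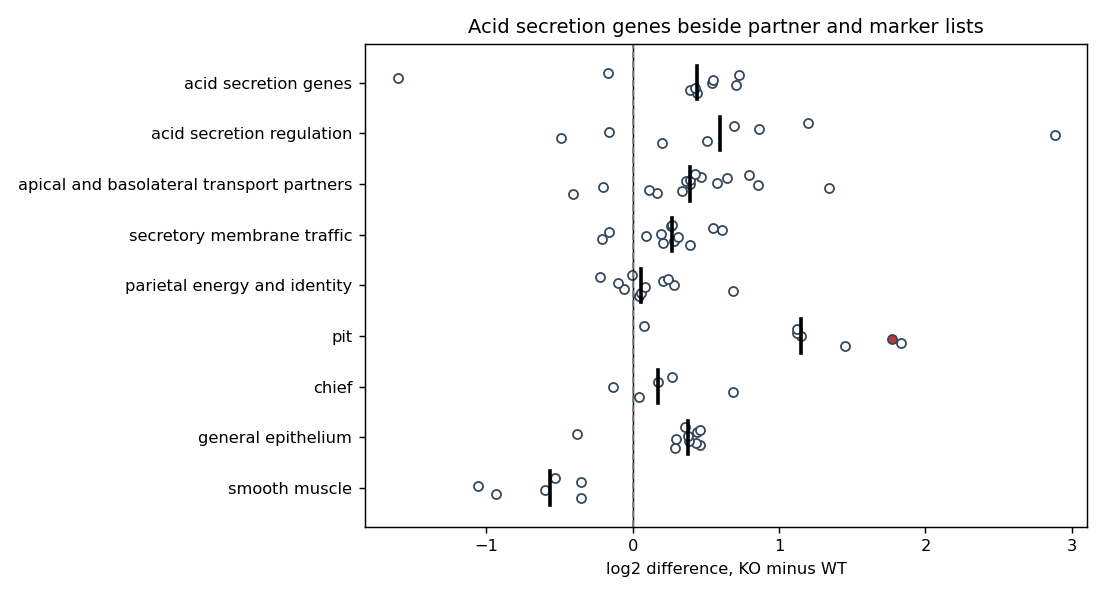
Log2 difference, knockout minus wild type (horizontal axis), of each tested gene in the acid secretion set, in 4 lists of partner genes and in 4 lists of cell type markers (rows). Points are genes, filled where limma's adjusted p was below 0.05, thick bars are list medians and the dashed line is the median of all genes. One gene, Gkn2 among the pit cell markers, passed the test, and the medians ran from −0.56 for smooth muscle to 1.15 for pit cells.

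The genes most like the pump were sought by the correlation, over the 9 arrays, of deviations from the genotype means with those of the mean of Atp4a and Atp4b. The 5 closest were Tbl2 (Pearson r = 0.985), Dpm2 (0.980), Fam187b (0.978), Pgam1 (0.976) and Sco2 (0.973). DPM2 is a subunit of dolichol phosphate mannose synthase, PGAM1 a glycolytic phosphoglycerate mutase and SCO2 a copper chaperone for cytochrome c oxidase. Without KO 2 and WT 2, the arrays farthest from the median of the pump mean, r lay between 0.900 and 0.976 for the 5, and without WT 4 between 0.974 and 0.991. The 2 subunits themselves followed each other little over the 9 arrays (Pearson r of their deviations = 0.12, and 0.944 without WT 4, with deviations taken from the mean of the arrays kept), so their mean is not the pattern of either alone. They are the highest of all named genes in 9 arrays that share a scaling, and the values describe these arrays only. None of the 5 passed the test between genotypes.

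The differences of the 9 genes were computed again under 20 alternatives, namely 9 in which 1 array was left out and 11 others of background correction, scaling, filtering, probe choice or covariates. Each gene kept its sign in all of its alternatives and none was called in any. The median over the genes ran from 0.13 (scaled to general epithelium) to 0.60 (without WT 4). Without WT 4, the unadjusted p was below 0.05 for 7 of the 9, beside 16.2% of all genes, and the lowest adjusted p was 0.121, that of Slc26a9; 164 of all genes were then called (0.755%). The unadjusted p was below 0.05 for 1 of the 9 without WT 3, with slide as a block or scaled to general epithelium, and for 2 with the Y-linked covariate or without KO 2, KO 5 or WT 1.

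**Figure D5:**
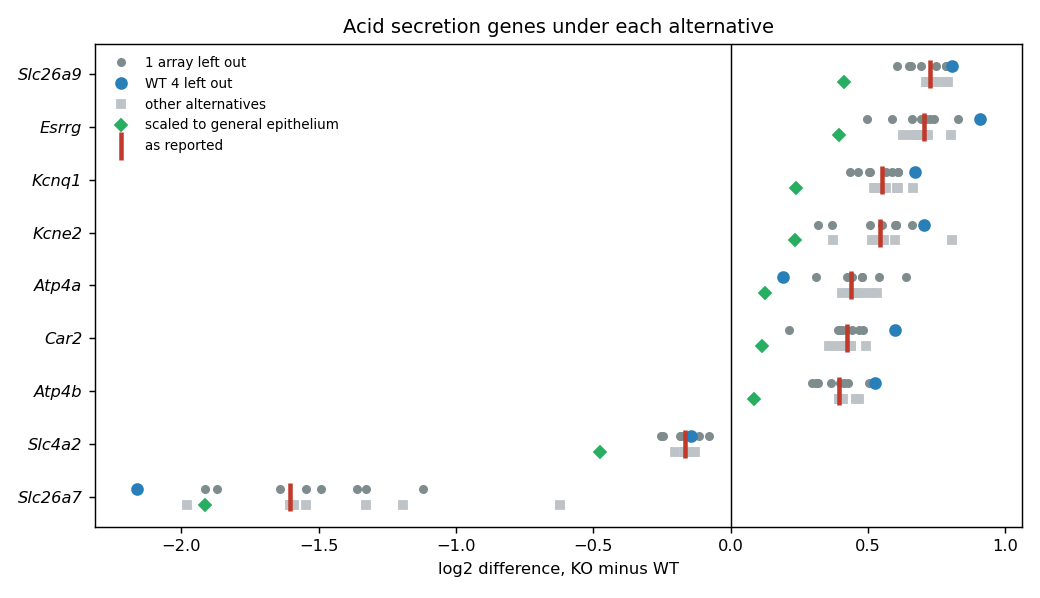
Log2 difference, knockout minus wild type (horizontal axis), of the 9 tested acid secretion genes as reported (red bars) and under each alternative. Grey circles leave out 1 array, blue circles WT 4, grey squares are other alternatives and green diamonds the scaling to general epithelium. No gene crosses 0, Atp4a is 0.19 without WT 4, and Slc26a7 has the widest range, from −2.16 to −0.62.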

How the data were processed

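Per the file headers, the authors scanned 1-colour arrays with Agilent Feature Extraction 10.5.1.1 (mm9 design; the submitters' processing notes name version 9.1), and the deposited intensity values are background-subtracted processed signals without normalization across arrays. Flags of another kind are in the deposited files for each spot: outlier, saturated and well above background. The authors' series matrix holds log2 values centred per probe on an unknown reference. For each probe, differences between its arrays equal those of log2 processed signal plus a shift per array, which settles scale and direction. Its column medians were 0.043, 0.22, −0.12, 0.033 and −0.14 (KO 1 to KO 5) and −0.28, −0.16, 0.22 and 0.38 (WT 1 to WT 4).

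Of 62976 spots per array, 3671 controls and outlier spots were left out; 50.9% to 57.2% of spots were well above background and 0 saturated. Levels are log2 of the processed signal over the 75th percentile of its array. A probe was kept if well above background on 4 or more of the 9 arrays (30202 probes), and the probe of highest mean stood for its gene. Limma 3.58.1 (R 4.3.3; lmFit and eBayes, two-sided, no covariate) was run on 21734 genes, with Benjamini-Hochberg adjustment. Replicates are separate mice, and the number of arrays limits the precision.

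The members and lists were chosen with earlier results of these data known. Named are the members, Cebpb, up to 4 genes of smallest p per list and the 5 genes most like the pump. Gkn2, Gast, Krt4, Krt13, Ivl, Trp63, Des, Acta2 and Cnn1 were named after their values were seen. Alternatives, fixed together with the design, were other background corrections, scalings, filters, probe choices, blocks and arrays left out.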

Additional observations from a re-analysis of the deposited data

Results flagged for a closer look

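In groups of 4 or 5 arrays, an array was picked out where its gap to the nearest other array took up a larger share of the group's range than Dixon's 95% critical value. Chance flags about 1 in 20 groups, and 3 of 62 were picked out here. The level of Atp4a minus that of Atp4b was −4.00 on WT 4, the lowest of the wild-type arrays. Sst was at 0.46 on WT 4, the lowest of wild type. Hrh2, too dim in wild type to stand well above background, was at −5.98 on WT 1.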

How the results depend on the processing

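Of all genes, 45 were called as reported, and between 41 and 48 with normexp background correction, quantile normalization, the series matrix values, a filter of all 9 arrays, the mean over the probes of a gene or all kept probes. The count was 22 with no filter on dim probes (35072 genes), 25 scaled to general epithelium, 5 with slide as a block and 4 with Y-linked signal as a covariate. With the replicate block it was 4. The labels give no pairing of the mice, and same-numbered arrays' deviations correlated at −0.305, 0.122, 0.153 and −0.482. These were not compared with differently numbered arrays, so they cannot show whether mice were paired. With 1 array left out the count ran from 11 (without WT 1) to 164 (without WT 4). Scaled to general epithelium, 28 rises and 17 falls became 9 and 16, and with no filter 9 and 13. The acid secretion genes called stayed at 0 in all 20 alternatives, the replicate block included, with adjusted p from 0.121 upward. Of the partner genes named, Gast was called without KO 2 (3.88). KO 2 is its most distant knockout array, so this call cannot serve as a separate test. Signs turned for Lasp1 (−0.0042), Vamp8 (−0.040), Ldhb (−0.030), Ppargc1b (−0.10) and Shh (−0.069) scaled to general epithelium. That scaling lowers the difference of every gene by the same amount, and the median of all genes was then −0.31. Signs also turned for Shh with the Y-linked covariate (−0.023), and with 1 array left out for Ppargc1b (−0.018, lowest, to 0.45) and Shh (−0.055, lowest, to 0.46). The causes of these other turns were not tested. Slc26a7 and Hrh2 are limited by signal near background.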
